A study of Mus musculus with 9 samples.

Results

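Complex I of the mitochondrial respiratory chain was followed through the nuclear genes whose symbols start with Nduf. The members are the protein coding rows of a liver FPKM table with such a symbol, leaving out symbols that end in -ps, and they number 46 of 54007 rows. Another 5 rows with an Nduf symbol were not protein coding in the annotation (Ndufa11b, Ndufab1-ps, Ndufb1-ps, Ndufb4c and Ndufs6b), so no row for the subunit Ndufb1 is among the members. By role, 36 members are subunits of complex I, of which 7 form the catalytic core and 29 are accessory. The other members are 8 assembly factors (Ndufaf1 to Ndufaf8) and 2 proteins that carry the symbol without being complex I subunits, Ndufa4, now placed in cytochrome c oxidase, and its relative Ndufa4l2.

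The livers were those of C57BL/6 mice of postnatal day 98, and each of the 3 groups has 3 libraries. The control group (replicates 1, 2 and 4) is labelled only as control. The HFD group (replicates 1, 2 and 3) received a high-fat diet, and the HFD+Pc group (replicates 1, 3 and 4) received a high-fat diet with gavage of the gut bacterium *Papillibacter cinnamivorans*. Mice entered at 6 weeks of age, 15 per group. No label says whether the other groups received a mock gavage, so the bacterium and the procedure cannot be told apart. Nothing in the labels tells if a library stands for 1 animal or several, and the p-values therefore measure the spread between these libraries.

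Complex I takes electrons from NADH and passes them to ubiquinone, and it pumps protons across the inner mitochondrial membrane as it does so. Its peripheral arm holds the N module, where NADH is oxidized, and the Q module, where ubiquinone is reduced. Its membrane arm holds the proton pumps, which are built around subunits encoded by mitochondrial DNA (the mt-Nd genes) and surrounded by accessory subunits encoded in the nucleus. Assembly factors help to build the complex and are not part of the finished enzyme. In the liver, the complex reoxidizes the NADH that fatty acid oxidation and the citric acid cycle release.

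Depth was similar across the 9 libraries, with 16279985 to 18641454 recovered reads and 10323 to 10587 genes at 1 FPKM or more. A count of 3 reads in 1 kb equals 0.160 to 0.179 FPKM, which reflects counting error alone. All 46 members reached 1 FPKM in at least 3 libraries and were tested. Reads per member and library ran from 8 for Ndufa4l2 to 3923, the latter in an HFD library. Ndufa4l2 passed that filter through the control libraries and HFD replicate 2, the only libraries in which it was above 1 FPKM. The summed level of 8 hepatocyte markers was 49365 to 50614 FPKM in control, 34201 to 36598 in HFD and 38128 to 52968 in HFD+Pc. Most of that sum was Alb, with 38002 to 39245 FPKM in control, 26086 to 27141 in HFD and 28977 to 41658 in HFD+Pc. Of the 8 markers, 1 was called lower in HFD against control, and 2 lower and 1 higher in HFD+Pc against control. The summed level of 6 endothelial markers was 54.1 to 61.8 FPKM in control, 36.96 to 46.96 in HFD and 44.3 to 48.6 in HFD+Pc, with 2 called lower in HFD against control. That of 6 stellate cell markers was 112 to 125 FPKM in control, 87.2 to 102 in HFD and 85.7 to 103 in HFD+Pc, with 1 called lower in HFD against control, and 2 lower and 1 higher in HFD+Pc against control. Both sums were thus below control in every library of the diet groups. The summed level of 5 B and plasma cell markers was 19.2 to 26.0 FPKM in control, 46.4 to 76.8 in HFD and 23.1 to 33.0 in HFD+Pc, and that of 4 adipocyte markers was at most 0.128, 24.1 and 5.95 FPKM in the same order of groups. The adipocyte sum was mostly Cfd, with 21.8, 9.92 and 5.23 FPKM in HFD and 5.95, 2.33 and 5.20 in HFD+Pc. Adipoq, Retn and Plin1 were at 0 in every HFD+Pc library and at most 1.54 FPKM in HFD. Of 3 skeletal muscle markers, the defining gene Ckm was at 0 in every library. The part of these marker levels in the results below was not tested. In whole liver, fewer cells of a type and less RNA per cell cannot be told apart.

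Promoter sequence is shown for the 4 members with a RefSeq window whose 250 bases before the start site hold the letters bound by nuclear respiratory factor 1 (NRF1), an activator of many nuclear genes of the respiratory chain. Ndufa8 was lower in HFD, Ndufa6 and Ndufa11 were lower in HFD+Pc, and Ndufaf4 was not called in any comparison. Each line gives those 250 bases, 5′ to 3′, in GRCm38.p6 coordinates from RefSeq, and capitals mark GCATGCGC or its reverse complement, which overlap in Ndufa11 and Ndufaf4.
Ndufa8 (chr2:36049339-36049588, minus strand): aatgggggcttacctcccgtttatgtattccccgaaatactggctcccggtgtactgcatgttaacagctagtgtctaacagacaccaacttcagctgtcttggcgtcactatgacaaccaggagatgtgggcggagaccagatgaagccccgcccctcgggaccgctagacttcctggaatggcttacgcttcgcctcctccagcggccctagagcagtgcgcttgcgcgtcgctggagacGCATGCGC
Ndufa6 (chr15:82354292-82354541, minus strand): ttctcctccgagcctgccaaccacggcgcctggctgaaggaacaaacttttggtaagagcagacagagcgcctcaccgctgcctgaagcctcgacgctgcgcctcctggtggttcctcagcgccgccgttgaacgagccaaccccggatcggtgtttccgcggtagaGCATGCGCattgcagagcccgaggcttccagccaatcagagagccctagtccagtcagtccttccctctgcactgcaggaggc
Ndufa11 (chr17:56717512-56717761, plus strand): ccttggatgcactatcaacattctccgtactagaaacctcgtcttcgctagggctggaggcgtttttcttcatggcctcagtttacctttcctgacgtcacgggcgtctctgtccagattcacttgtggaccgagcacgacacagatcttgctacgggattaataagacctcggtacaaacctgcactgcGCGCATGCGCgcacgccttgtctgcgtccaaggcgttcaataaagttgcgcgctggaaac
Ndufaf4 (chr4:24897833-24898082, plus strand): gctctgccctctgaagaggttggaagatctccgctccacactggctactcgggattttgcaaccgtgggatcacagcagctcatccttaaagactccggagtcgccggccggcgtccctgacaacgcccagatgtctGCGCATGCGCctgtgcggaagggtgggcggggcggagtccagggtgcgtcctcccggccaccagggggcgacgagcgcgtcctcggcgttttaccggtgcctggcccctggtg

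RefSeq promoter windows (250 bases before and 50 after the start) were found for 40 of the 46 members. On either strand, the NRF1 letters GCATGCGC were in the windows of 5 of these 40 members (12.5%, against 6.2% of 7955 tested genes with a window and 3.05% of all 27025 genes), the fifth being Ndufaf5, where they lie after the start. The letters ACTTCCG of the ETS family, to which the regulator Gabpa belongs, were found in 4 members (10%, against 15.8% and 7.2%). The letters AAGATGGC of YY1 were found in 8 members (20%, against 5.63% and 3.19%), namely Ndufa3, Ndufa9, Ndufaf8, Ndufb8, Ndufc1, Ndufs4, Ndufs6 and Ndufs7. In all 8 the YY1 letters lie in the 50 bases after the start and none lie before it. Members with the YY1 letters included genes called lower (Ndufa3, Ndufb8, Ndufs6) and genes called higher (Ndufc1, Ndufs4) in HFD+Pc against control. A match of letters is a description and shows no binding.

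In control liver, the mean level of a member ran from 1.42 FPKM for Ndufa4l2 to 144 FPKM for Ndufa4, with a median of 35.8 FPKM over the 46. In the N module, Ndufa2, an accessory subunit with a thioredoxin-like fold, had the most transcript (99.6 ± 11.4 FPKM, mean ± SD, n = 3 as for all levels). Ndufa1, a small accessory subunit of the membrane arm, led its proximal part with 76.2 ± 5.10 FPKM, and Ndufb11, another single-pass membrane subunit, led its distal part with 108 ± 6.43 FPKM. Among the assembly factors, Ndufaf1, which works on an early membrane arm intermediate, was highest with 13.4 ± 0.391 FPKM, and Ndufaf5 was lowest with 1.92 ± 0.230 FPKM. The distal subunit Ndufb2 stood at only 1.46 ± 0.137 FPKM. These levels are divided by the length of all exons of a gene model, which for Ndufb2 was 12.4 times that of its principal transcript. Per principal transcript Ndufb2 moved from rank 45 to 36, Ndufc1 from 28 to 7 and Ndufa6 from 9 to 2 among the 46, whereas Ndufa4 was first by either length. By that length Ndufc1, Ndufs5 and Ndufa3 stood above Ndufa1 in the proximal part, and Ndufb10 above Ndufb11 in the distal part. Ratios of FPKM between groups within a gene do not depend on that length.

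**Figure D1:**
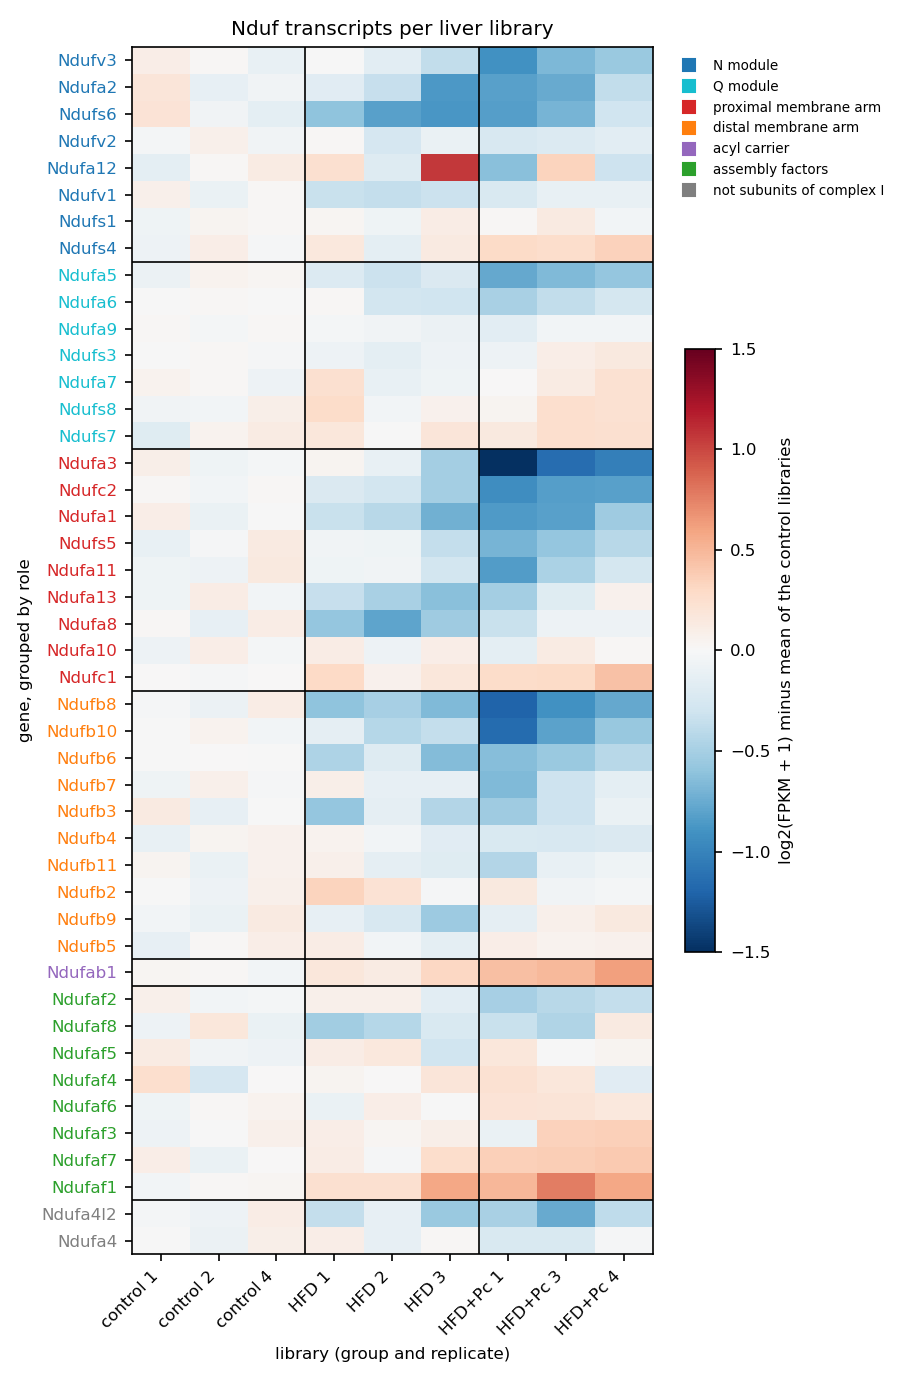
Level of 45 of the 46 Nduf genes in each of the 9 liver libraries, as log2(FPKM + 1) minus the mean of the 3 control libraries (color scale, blue lower and red higher). Rows are grouped by role and columns by group and replicate. Membrane arm genes such as Ndufa3, Ndufc2, Ndufb8 and Ndufb10 are darkest blue in HFD+Pc, Ndufab1 and Ndufaf1 are red there, and Ndufa12 stands out in HFD replicate 3.

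The comparison of HFD with control addresses the diet. Of the 29 accessory subunits, 6 were called lower in HFD liver, Ndufs6 of the peripheral arm and 5 of the membrane arm, as was the core subunit Ndufv1, and no member was called higher. The test was limma on log2(FPKM + 1) over all 10988 tested genes with Benjamini-Hochberg adjustment, and a gene was called at an adjusted p under 0.05. On that scale, 7 of 46 members were called lower and 0 higher, against 5.35% of all tested genes called lower and 4.61% called higher. The difference was negative for 31 members, with a median of -0.07, against -0.00 over all tested genes. The HFD libraries did not overlap the control libraries for 17 members that were lower and 3 that were higher (16.4% and 16.5% of all tested genes). The count of 7 was 1, 2 and 3 without control replicate 1, 2 and 4, 3, 4 and 2 without HFD replicate 1, 2 and 3, and 4 without HFD+Pc replicate 3. The median was -0.12 without HFD replicate 1 and -0.04 without HFD replicate 3, -0.03 with equal FPKM sums (0.03 over all tested genes) and -0.04 with upper quartile scaling (0.02). Without the filter on low values, 0 members were called.

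In the N module, Ndufs6, a zinc-binding accessory subunit, measured 46.1, 38.3 and 35.8 FPKM in control, 25.9, 22.2 and 21.3 in HFD and 21.97, 24.1 and 32.2 in HFD+Pc. All 3 HFD libraries were below all 3 control libraries, and the HFD mean was 0.577 of the control mean (-0.77 ± 0.15, limma adjusted p = 0.0178). That call was lost without control replicate 1, control replicate 2 or HFD replicate 3 (limma adjusted p up to 0.0583). Ndufv1, the core subunit that binds NADH and the flavin, measured 55.3, 48.95 and 53.04 FPKM in control, 41.4, 40.8 and 41.8 in HFD and 44.4, 48.6 and 48.3 in HFD+Pc. Its HFD libraries lay close together and below every other library (-0.33 ± 0.08, limma adjusted p = 0.0307). With all libraries it was the only nuclear-encoded member of the catalytic core called in any of the comparisons, and the call was lost without any 1 of the control or HFD libraries (limma adjusted p up to 0.0978) and with the trend in length and GC content removed.

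In the proximal membrane arm, Ndufa8, a cysteine-rich subunit on the intermembrane side, measured 67.7, 61.3 and 72.7 FPKM in control, 44.4, 38.5 and 46.1 in HFD and 52.8, 63.5 and 63.4 in HFD+Pc. The HFD libraries were the lowest of the 9 for this gene, and the HFD+Pc libraries overlapped the control range (-0.63 ± 0.11, limma adjusted p = 0.0131 for HFD against control). With 1 library left out at a time, Ndufa8 was called in all 9 fits, alone among the 7. Ndufa1 measured 81.4, 71.2 and 76.005 FPKM in control, 59.96, 57.002 and 45.9 in HFD and 41.6, 42.7 and 52.3 in HFD+Pc, with no overlap between HFD and control (-0.49 ± 0.13, limma adjusted p = 0.0399), a call kept only without HFD+Pc replicate 1 or 4 (limma adjusted p up to 0.119). Ndufc2, a membrane subunit, measured 61.7, 59.01 and 61.5 FPKM in control, 52.1, 49.9 and 42.3 in HFD and 31.5, 33.8 and 34.2 in HFD+Pc. The groups were fully separated and ordered control, HFD, HFD+Pc. Its difference in HFD against control (-0.34 ± 0.09, limma adjusted p = 0.0482) was called with all 9 libraries and in 0 of the 9 fits with 1 library left out (limma adjusted p up to 0.125). Ndufa13, also known as Grim19, measured 49.1, 55.7 and 50.03 FPKM in control, 40.3, 36.5 and 32.997 in HFD and 36.02, 45.2 and 53.8 in HFD+Pc. It was lower in every HFD library than in every control library without passing (-0.49 ± 0.14, limma adjusted p = 0.0565).

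In the distal membrane arm, Ndufb8 is an accessory subunit whose protein is widely used as a marker of assembled complex I. It measured 12.8, 12.2 and 14.1 FPKM in control, 8.19, 8.91 and 7.85 in HFD and 5.11, 6.45 and 7.26 in HFD+Pc. No 2 groups overlapped, and the HFD mean was 0.638 of the control mean (-0.59 ± 0.11, limma adjusted p = 0.0168), a call lost only without control replicate 1 (limma adjusted p = 0.0505). Ndufb6 measured 48.4, 48.6 and 48.3 FPKM in control, 34.98, 42.1 and 30.4 in HFD and 30.7, 32.5 and 36.2 in HFD+Pc. Its 3 control libraries were nearly equal and above all others (-0.44 ± 0.12, limma adjusted p = 0.0438), a call kept only without HFD replicate 2 or HFD+Pc replicate 1 (limma adjusted p up to 0.114). In the opposite direction, the largest differences were those of Ndufa12 (0.37), Ndufaf1 (0.35), Ndufab1 (0.20), Ndufb2 (0.18) and Ndufc1 (0.18). None of these passed (limma adjusted p = 0.49, 0.0717, 0.139, 0.307 and 0.19). Ndufaf1 was called with equal FPKM sums and with quantile normalization.

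**Figure D2:**
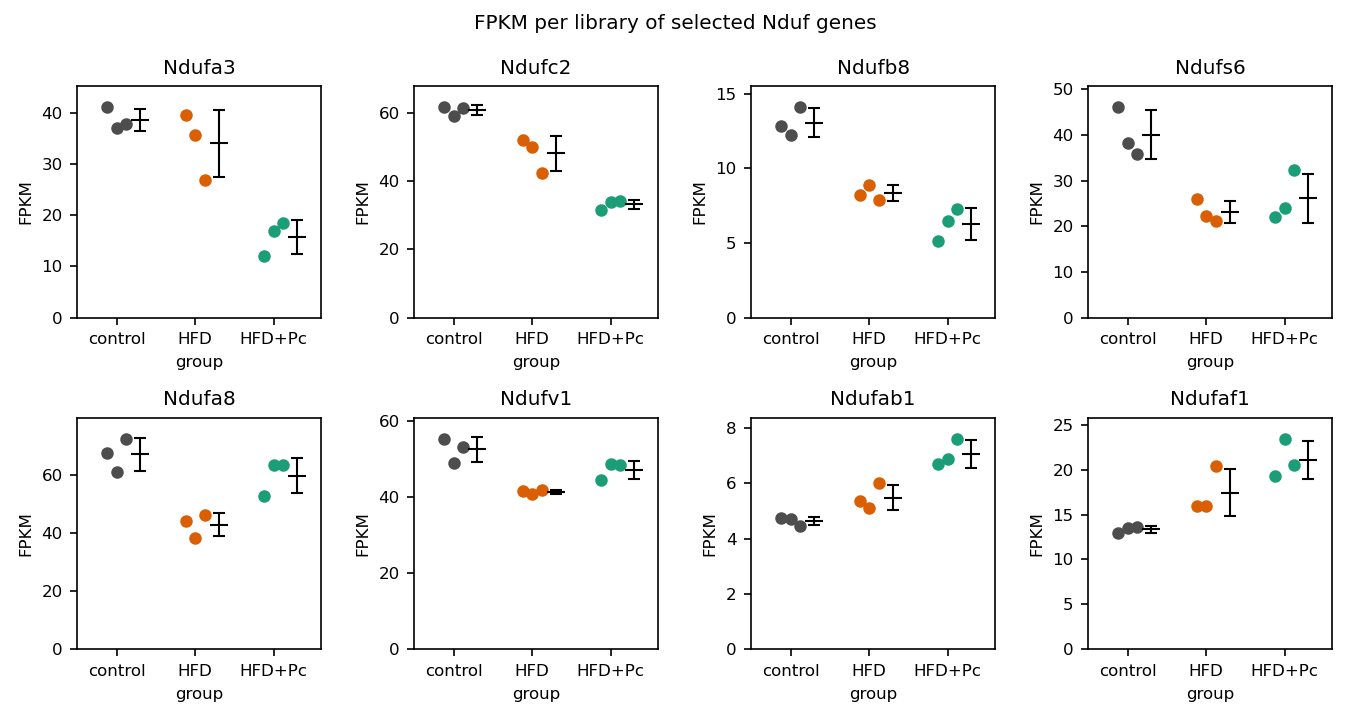
FPKM of 8 Nduf genes in each liver library (points, one per library) with the group mean and SD beside them (horizontal bar and error bar, n = 3). Ndufa3, Ndufc2 and Ndufb8 are lowest in HFD+Pc, Ndufa8 and Ndufv1 are lowest in HFD, and Ndufab1 and Ndufaf1 are highest in HFD+Pc.

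The comparison of HFD+Pc with HFD addresses the gavage on the same diet. Here 2 of 46 members were called lower and 0 higher, against 0.446% of all tested genes called lower and 0.182% called higher. Both were accessory subunits of the proximal membrane arm. The HFD libraries serve in this and the preceding comparison. Of the 46 differences, 25 were negative, with a median of -0.03, against 0.01 over all tested genes. With HFD replicate 3 left out, 4 members were called lower, and with any other library left out, or without the filter on low values, 0 were. Without HFD+Pc replicate 1 the median was 0.01, without HFD+Pc replicate 3 it was -0.06, and without HFD replicate 1 it was -0.02. It was -0.09 with equal FPKM sums (-0.04 over all tested genes), -0.07 with quantile normalization (0.01) and -0.06 with upper quartile scaling (-0.01). The groups did not overlap for 10 members that were lower and 7 that were higher in HFD+Pc (9.56% and 10.2% of all tested genes).

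Ndufa3, a small single-pass membrane subunit, measured 41.2, 37.03 and 37.8 FPKM in control, 39.7, 35.6 and 26.9 in HFD and 11.97, 16.99 and 18.4 in HFD+Pc. Each HFD+Pc library was below every other library, and HFD replicate 3 was the lowest of the rest. The HFD+Pc mean was 0.463 of the HFD mean (-1.07 ± 0.17, limma adjusted p = 0.0452), the largest difference of any member in this comparison. For Ndufc2, whose values are given above, the HFD+Pc mean was 0.689 of the HFD mean (-0.52 ± 0.09, limma adjusted p = 0.0465). Each of these calls was kept in only 1 of the 9 fits with 1 library left out, namely without HFD replicate 3 (limma adjusted p up to 0.143 and 0.145).

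Other members with large negative differences were the accessory N module subunit Ndufv3 (-0.54), Ndufa12 (-0.57) and Ndufb10 (-0.53), and they did not pass (limma adjusted p = 0.0754, 0.431 and 0.119). Ndufa5, an accessory subunit of the Q module, measured 40.9, 45.5 and 44.7 FPKM in control, 37.6, 34.8 and 37.5 in HFD and 25.2, 27.2 and 28.9 in HFD+Pc. Its HFD+Pc libraries lay below all others (-0.42 ± 0.08, limma adjusted p = 0.0561), and it was called with 4 other scalings of the libraries and by voom. Among positive differences, Ndufa8 had the largest (0.47 ± 0.11, limma adjusted p = 0.0944), and was called only with the trend in length and GC content removed. It was followed by Ndufb9 (0.33), Ndufab1 (0.31), Ndufa13 (0.28) and Ndufaf1 (0.27), with limma adjusted p of 0.255, 0.112, 0.376 and 0.276. The distal subunit Ndufb9 measured 52.4, 50.004 and 59.4 FPKM in control, 49.2, 45.3 and 36.6 in HFD and 48.7, 56.5 and 59.8 in HFD+Pc, so that HFD and HFD+Pc overlapped by HFD replicate 1.

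The comparison of HFD+Pc with control spans diet and gavage together and shares libraries with both others, so its calls are no second observation of theirs. It held the most calls: 15 of 46 members were lower and 5 higher, against 11.9% and 11.1% of all tested genes. The median difference was -0.18, against 0.01 over all tested genes, and 29 members were negative. The groups did not overlap for 20 members that were lower and 7 that were higher (20.8% and 22.1% of all tested genes). HFD+Pc replicate 1 held the lowest value of the 9 libraries for 19 of the 46 members, among them 11 of the 15 called lower. Those 15 were picked for low HFD+Pc levels. Averaged over all 46 members, log2(FPKM + 1) relative to the mean of the 9 libraries was 0.11, 0.09 and 0.13 in control, 0.05, -0.04 and -0.06 in HFD and -0.21, -0.07 and 0.01 in HFD+Pc. Without HFD+Pc replicate 1, 11 members were called lower and 5 higher and the median was -0.08. The count of 5 higher was 2 without control replicate 2 and 3 without control replicate 1 or HFD+Pc replicate 3 or 4. The calls of Ndufa2, Ndufa6, Ndufa11, Ndufa4l2, Ndufaf7 and Ndufs4 were lost both without the filter on low values and with the trend in length and GC content removed, and those of Ndufs6 and Ndufc1 without that filter. Other members gained a call with the trend removed, which left 13 lower and 7 higher and a median of -0.10 (0.01 over all tested genes).

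In the proximal membrane arm, 5 of 9 members were called lower and 1 higher (55.6% and 11.1%, against 11.9% and 11.1% of all tested genes). Ndufa3 had the largest fall of any member, to 0.408 of the control mean (-1.26 ± 0.17, limma adjusted p = 0.0025), and Ndufc2 fell to 0.546 of it (-0.86 ± 0.09, limma adjusted p = 0.00141). Ndufa1 fell by 0.74 on the log2(FPKM + 1) scale (limma adjusted p = 0.00497). Ndufs5, an accessory subunit on the intermembrane side, measured 49.4, 52.9 and 59.02 FPKM in control, 51.8, 51.3 and 41.6 in HFD and 32.6, 35.6 and 40.001 in HFD+Pc, with every HFD+Pc library below every other library (-0.56 ± 0.12, limma adjusted p = 0.0101). Ndufa11, a membrane subunit next to the mitochondrially encoded core, measured 28.1, 27.9 and 32.7 FPKM in control, 28.2, 28.4 and 24.2 in HFD and 16.03, 20.9 and 24.5 in HFD+Pc. Its HFD+Pc libraries were below control while HFD+Pc replicate 4 lay within the HFD range (-0.52 ± 0.14, limma adjusted p = 0.0272), and the call was lost without any 1 control library or HFD+Pc replicate 1 or 3 (limma adjusted p up to 0.0849). In contrast, Ndufc1, a small membrane subunit, measured 21.4, 21.02 and 21.4 FPKM in control, 26.4, 22.4 and 24.2 in HFD and 26.1, 26.1 and 29.3 in HFD+Pc. Both diet groups lay above control (0.34 ± 0.08, limma adjusted p = 0.0188), and the call was lost without control replicate 1 or 2 or HFD+Pc replicate 4 (limma adjusted p up to 0.0616).

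In the distal membrane arm, 3 of 10 members were called lower and 0 higher (30% and 0%, against 11.9% and 11.1% of all tested genes). Ndufb8 fell to 0.481 of the control mean (-0.96 ± 0.11, limma adjusted p = 0.0015). Ndufb10, a cysteine-rich subunit on the intermembrane side, measured 68.5, 71.4 and 67.01 FPKM in control, 62.96, 50.8 and 53.7 in HFD and 30.5, 39.1 and 46.2 in HFD+Pc. The 3 groups were separated for this gene, and HFD+Pc stood at 0.560 of control (-0.84 ± 0.14, limma adjusted p = 0.00478). Ndufb6 fell by 0.54 (limma adjusted p = 0.0115). The remaining 7 members of this arm had differences of -0.37 (Ndufb7) to 0.07 (Ndufb5) and were not called.

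In the peripheral arm, 3 of 8 N module members and 2 of 8 Q module members were called lower, and 1 N module member was higher. The shares called lower were 37.5% and 25%, against 11.9% of all tested genes. The share called higher in the N module was 12.5%, against 11.1%. Ndufv3 measured 15.9, 14.99 and 13.6 FPKM in control, 14.7, 13.2 and 11.3 in HFD and 7.44, 8.91 and 9.73 in HFD+Pc, with all HFD+Pc libraries below all others (-0.71 ± 0.12, limma adjusted p = 0.00442). Ndufa2 measured 112, 90.6 and 95.6 FPKM in control, 88.2, 77.5 and 54.2 in HFD and 55.8, 58.3 and 76.6 in HFD+Pc. Its HFD and HFD+Pc libraries overlapped and both groups lay below control (-0.65 ± 0.19, limma adjusted p = 0.0352). Ndufs6 fell by 0.61 (limma adjusted p = 0.0185). The calls of Ndufa2 and Ndufs6 were lost without control replicate 1 or HFD+Pc replicate 1 or 3, and that of Ndufa2 also without control replicate 2 or 4 (limma adjusted p up to 0.111 and 0.0665). In the Q module, Ndufa5 fell to 0.620 of control (-0.67 ± 0.08, limma adjusted p = 0.00168). Ndufa6, a subunit of the LYR family that holds an acyl carrier protein, measured 59.5, 60.6 and 59.5 FPKM in control, 60.7, 49.4 and 48.6 in HFD and 42.5, 46.05 and 49.8 in HFD+Pc. HFD+Pc was below control in every library and overlapped HFD (-0.37 ± 0.10, limma adjusted p = 0.0284), and the call was lost without any 1 control library or HFD+Pc replicate 1 or 3 (limma adjusted p up to 0.0806). Ndufs4, an accessory subunit whose loss in mice gives a Leigh-like disease, measured 16.6, 18.8 and 17.4 FPKM in control, 19.8, 15.8 and 19.5 in HFD and 21.7, 21.3 and 22.6 in HFD+Pc. It was highest in all 3 HFD+Pc libraries (0.30 ± 0.10, limma adjusted p = 0.0484), a call kept in 2 of 9 fits with 1 library left out, those without HFD replicate 2 or 3 (limma adjusted p up to 0.141).

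Ndufab1, the mitochondrial acyl carrier protein, serves complex I as a subunit and also carries the growing chain in mitochondrial fatty acid synthesis. It measured 4.73, 4.71 and 4.46 FPKM in control, 5.35, 5.11 and 5.997 in HFD and 6.69, 6.88 and 7.62 in HFD+Pc, and the groups rose without overlap from control to HFD to HFD+Pc (0.52 ± 0.08, limma adjusted p = 0.00361 for HFD+Pc against control). Among the 8 assembly factors, 2 were called higher and 1 lower in that comparison (25% and 12.5%, against 11.1% and 11.9% of all tested genes). Ndufaf1 measured 12.9, 13.5 and 13.7 FPKM in control, 15.9, 15.9 and 20.4 in HFD and 19.4, 23.5 and 20.6 in HFD+Pc, with HFD replicate 3 inside the HFD+Pc range and all control libraries below the rest (0.62 ± 0.11, limma adjusted p = 0.0056). Ndufaf7, a methyltransferase that acts in assembly, measured 3.22, 2.65 and 2.94 FPKM in control, 3.24, 2.89 and 3.70 in HFD and 4.02, 4.09 and 4.16 in HFD+Pc. The HFD+Pc libraries were the highest of the 9 (0.37 ± 0.09, limma adjusted p = 0.0175), and the call was lost without control replicate 2 or HFD+Pc replicate 3 (limma adjusted p up to 0.0628). Ndufaf2, a paralog of Ndufa12 that acts late in assembly, measured 2.17, 1.94 and 1.95 FPKM in control, 2.18, 2.17 and 1.70 in HFD and 1.13, 1.26 and 1.35 in HFD+Pc. Control and HFD overlapped, and HFD+Pc lay below both (-0.43 ± 0.09, limma adjusted p = 0.0119). The remaining 5 assembly factors had differences of -0.22 (Ndufaf8) to 0.20 (Ndufaf3).

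Of the members outside complex I, Ndufa4l2 measured 1.37, 1.29 and 1.62 FPKM in control, 0.896, 1.22 and 0.652 in HFD and 0.731, 0.436 and 0.865 in HFD+Pc on 8 to 32 reads a library. HFD+Pc lay below control (-0.54 ± 0.14, limma adjusted p = 0.0257), but voom on the recovered reads did not call it, and the call was lost without any 1 control library or HFD+Pc replicate 3 (limma adjusted p up to 0.0859). No HFD+Pc library reached the filter of 1 FPKM, and all control libraries did. The gene was thus tested because control was high, and its place among the 15 called lower follows in part from that filter. Ndufa4 measured 144, 136 and 154 FPKM in control, 155, 132 and 146 in HFD and 123, 123 and 142 in HFD+Pc, with overlapping groups (-0.16 ± 0.10, limma adjusted p = 0.277).

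**Figure D3:**
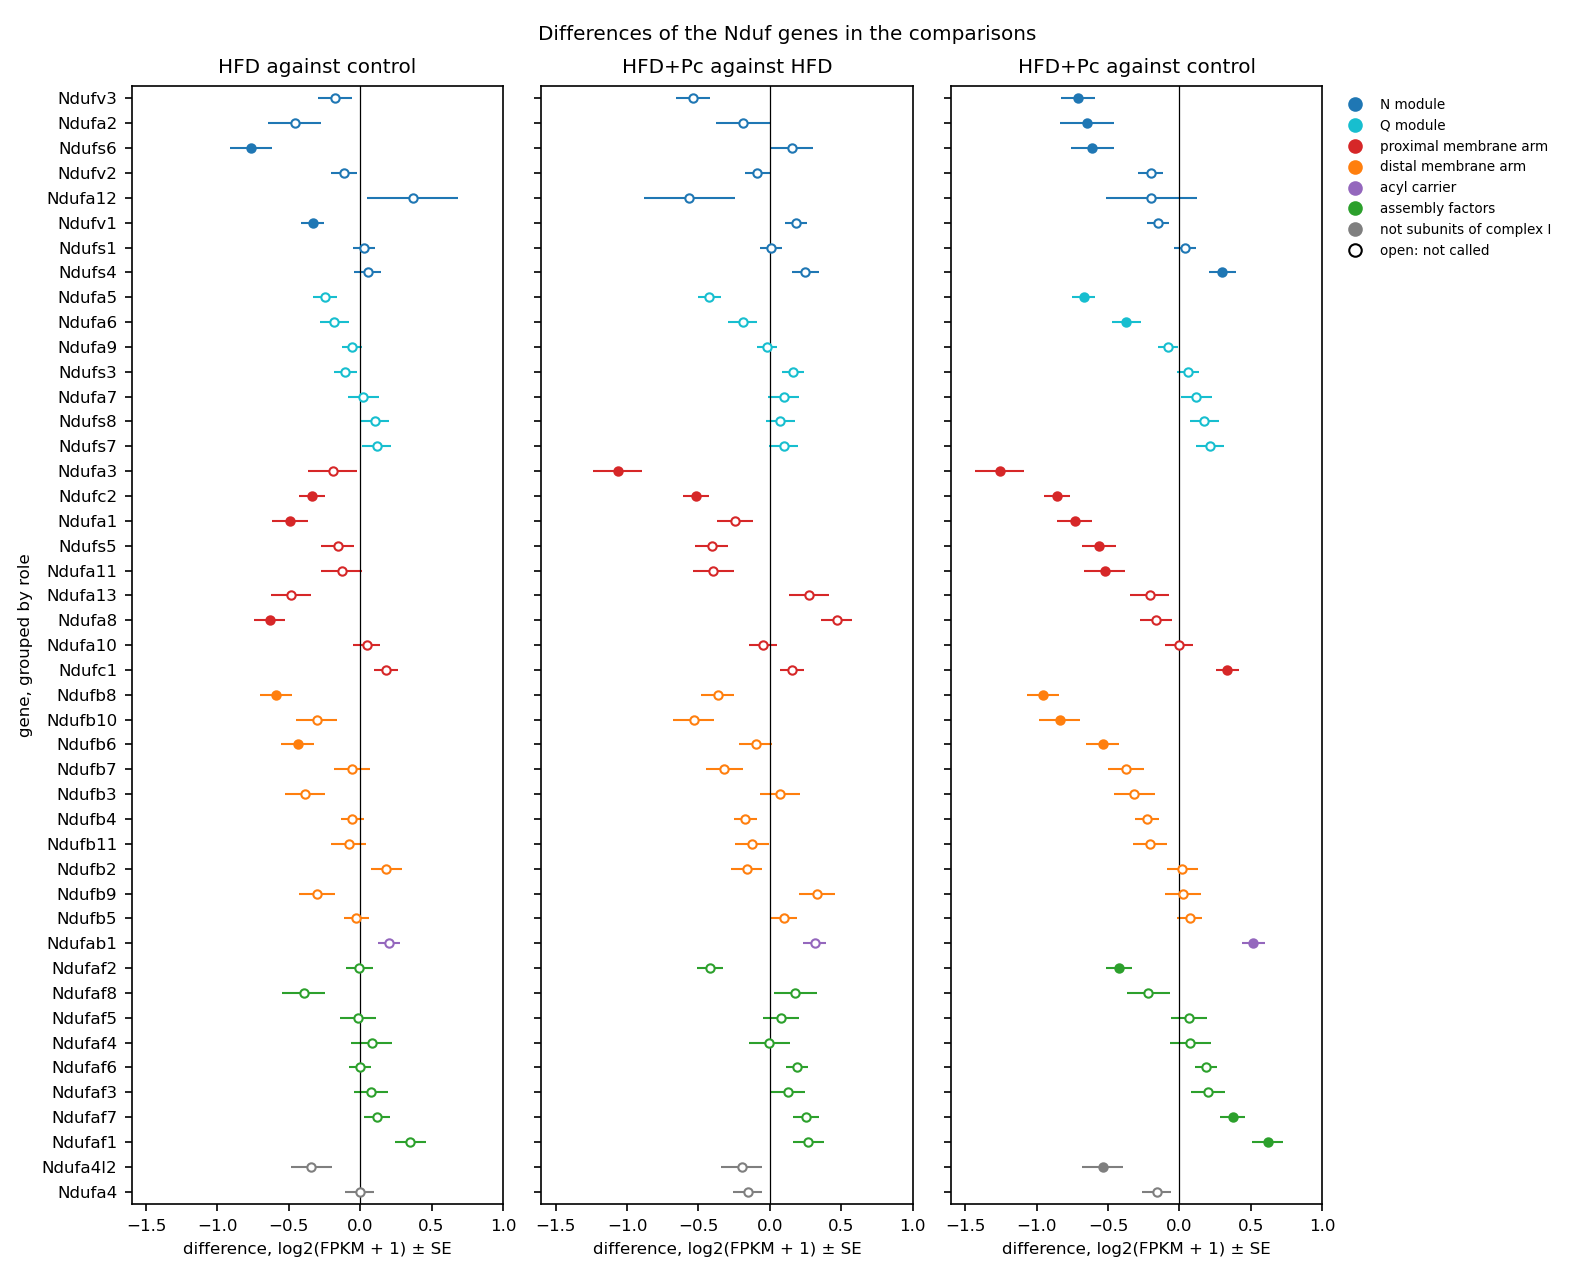
Difference of 45 of the 46 Nduf genes in the comparisons HFD against control (left), HFD+Pc against HFD (middle) and HFD+Pc against control (right), on the log2(FPKM + 1) scale with SE. Filled points are called (limma adjusted p under 0.05), open points are not, and colors give the role. Called genes number 7, 2 and 20 from left to right, and the negative ones are mostly accessory subunits.

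The catalytic core and the accessory subunits had different counts. Over the 7 core subunits the median differences were 0.03 in HFD against control, 0.07 between the diet groups and 0.04 in HFD+Pc against control, and apart from Ndufv1 in HFD none was called. Over the 29 accessory subunits the medians were -0.18, -0.16 and -0.32, with 6, 2 and 13 called lower and 0, 0 and 3 higher. The shares called lower were 20.7%, 6.90% and 44.8%, against 5.35%, 0.446% and 11.9% of all tested genes. The share called higher in HFD+Pc against control was 10.3%, near the 11.1% of all tested genes. In HFD+Pc against control, the core differences ran from -0.20 for Ndufv2 to 0.21 for Ndufs7, both of which carry an iron-sulfur cluster, and Ndufs1, with several such clusters, had 0.04. With the trend in length and GC content removed, Ndufv2 was called lower and Ndufs7 and Ndufs8 higher. The difference between the core and the accessory subunits was not tested.

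Group means fell in the order control, HFD, HFD+Pc for 20 members (43.5%, against 24.0% of all tested genes) and rose in that order for 11 (23.9%, against 26.2%). Another 11 members were lowest in HFD (23.9%, against 25.8% of all tested genes), among them Ndufa8, Ndufv1, Ndufs6 and Ndufb9. The remaining 4 were highest there (8.70%, against 23.9%), among them Ndufa12, Ndufb2 and Ndufa10.

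All members with gene models under 1000 bases were accessory subunits or Ndufaf8. The core gene models measured 1291 to 8086 bases, and the accessory ones 419 to 6883. By principal transcript the picture differs, with 758 and 780 bases for the core subunits Ndufs7 and Ndufs8. Among short principal transcripts, Ndufa1 (419 bases), Ndufa3 (515) and Ndufs5 (525) were called lower in HFD+Pc against control. Ndufc1 (315), the shortest, was called higher there, and Ndufb2 (455) was not called. The bins and correlations below use the gene model. Of the 10 members under 1000 bases, all had a negative difference in HFD against control, 5 of them called, with a median of -0.42, against -0.07 over 975 tested genes of that length, of which 6.15% were called lower. In HFD+Pc against control all 10 were again negative and 6 were called, with a median of -0.55, against -0.09 over the same 975 genes, of which 57.1% were negative and 16.9% called lower. Of the 19 members of at least 1000 and under 2000 bases, 0 were called in HFD against control, and 6 were called lower and 2 higher in HFD+Pc against control, with a median of -0.16, against -0.04 over 1345 tested genes of that length, of which 16.4% were called lower. Of the 17 members of 2000 bases or more, 3 were called lower and 3 higher in HFD+Pc against control, with a median of -0.00, and 2 were called lower in HFD against control (10.6% and 4.71% of 8475 tested genes of that length were called lower in these comparisons). Across the 46 members, Spearman's rho between length and difference was 0.596 in HFD against control, 0.132 in HFD+Pc against HFD and 0.472 in HFD+Pc against control, against 0.0645 to 0.110 across 10795 tested genes with a known length. Genes are not independent replicates, and these values share libraries. A list of 12 cytosolic ribosomal proteins, chosen for short transcripts, also had its highest mean in control (0.45, 0.17 and 0.28 relative to the mean of the 9 libraries) and its lowest in HFD+Pc (-0.57, -0.25 and -0.10), with HFD between (0.21, -0.00 and -0.19). Their gene models measured 542 to 2691 bases with a median of 1422, and only 3 were under 1000 bases, so they do not match that bin. Of these genes, 5 were called lower and 1 higher in HFD+Pc against control (41.7% and 8.33%, against 11.9% and 11.1% of all tested genes). Rpl38, Rpl41, Rps28, Rps29 and Rpl36a fell, by 0.61 to 1.84, and Rps21 rose by 0.51. In HFD against control Rpl37 alone was lower (-0.46), and in HFD+Pc against HFD Rpl41 and Rps29 were (-0.99 and -1.10). With 1 library left out, these calls were kept in 3 of 9 fits for Rpl37, 0 for Rpl41 and 1 for Rps29. After a trend in length and GC content was removed per library, 6 members were lower in HFD against control, and 13 were lower and 7 higher in HFD+Pc against control. The part of RNA quality or fragment length in these differences was not tested.

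**Figure D4:**
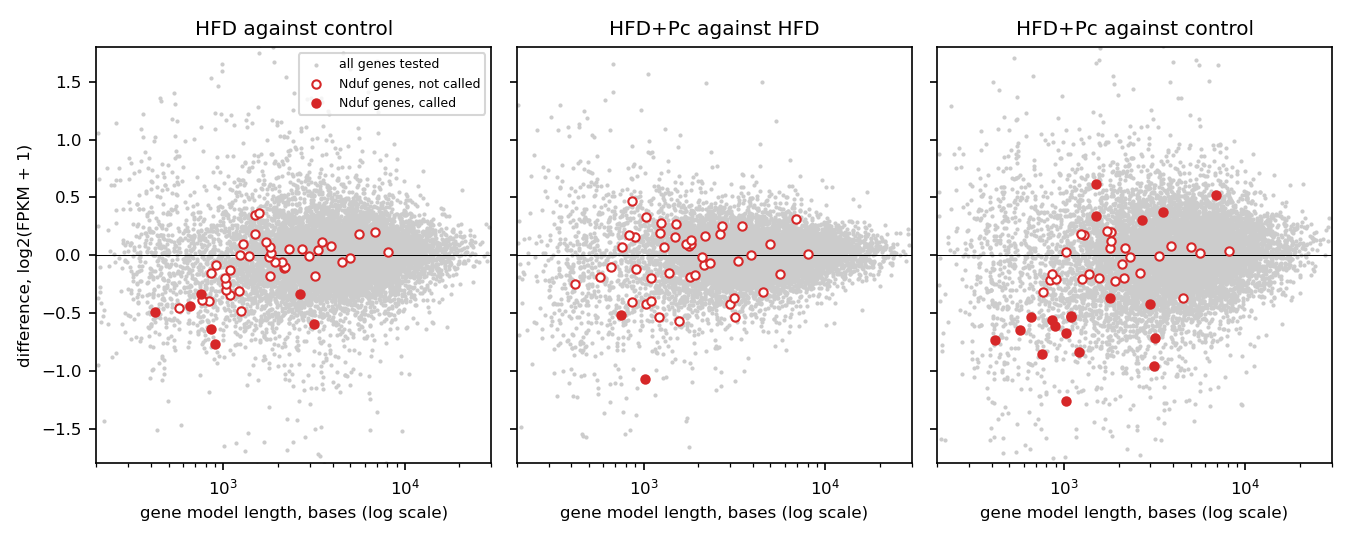
Length of the gene model in bases (log scale) against the difference on the log2(FPKM + 1) scale, for all tested genes with a known length (gray) and the 46 Nduf genes (red, filled where called), in the 3 comparisons. All 10 Nduf genes under 1000 bases lie below 0 in the left and right panels. The vertical axis leaves out genes beyond 1.8 in either direction.

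Processed pseudogenes that match a member almost letter for letter can take its reads. Ndufa12, an accessory N module subunit, measured 5.79, 6.56 and 7.19 FPKM in control, 7.82, 5.53 and 14.7 in HFD and 3.86, 8.44 and 5.06 in HFD+Pc, with HFD replicate 3 far above the others. The pseudogene Gm15920 matches it at 99.5% identity over 402 bases, and it held 377, 306 and 258 reads in control, 324, 231 and 102 in HFD and 141, 86 and 136 in HFD+Pc. In HFD replicate 3 the pseudogene was at its lowest of that group while Ndufa12 was at its highest. Summed over both genes, reads were 547, 481 and 462 in control, 549, 380 and 489 in HFD and 247, 308 and 270 in HFD+Pc, and the HFD+Pc libraries were then below all others. With the copies' reads added, Ndufa12 was called lower in HFD+Pc against control (-0.73 ± 0.13, limma adjusted p = 0.00549), had -0.69 ± 0.13 in HFD+Pc against HFD (limma adjusted p = 0.0525), and its difference in HFD against control turned from 0.37 to -0.04. This alternative was chosen after the data were seen.

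For Ndufab1, the copies Gm4459 and Ndufab1-ps match at 99% identity or more, and the summed reads were 826, 771 and 756 in control, 927, 821 and 957 in HFD and 1164, 1148 and 1244 in HFD+Pc. The groups rose from control to HFD+Pc as they did for Ndufab1 alone (0.59 ± 0.08 for HFD+Pc against control, limma adjusted p = 0.00229). These summed reads are not scaled for depth. HFD replicate 2 had its 821 on 16315452 recovered reads, and control replicate 1 its 826 on 18641454, so the lower count is no lower level. Copies at 95% identity or more were found for 7 members in all, and adding their reads left the calls of Ndufs5 (-0.58, limma adjusted p = 0.00972) and Ndufs6 (-0.62, limma adjusted p = 0.0187) in HFD+Pc against control, and that of Ndufs6 in HFD against control (-0.77, limma adjusted p = 0.0179). Ndufs3, Ndufb4 and Ndufb11 were not called with or without them. Exon bases are shared with a gene on the opposite strand for 17 members, such as 257 bases of Ndufb6 with Smim27 and 32 bases of the low Ndufa4l2 with Shmt2, and since strand use in counting is not stated, their reads cannot be told apart.

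The 7 subunits encoded by mitochondrial DNA, which form the core of the membrane arm, had none called lower. Their median differences were -0.04, 0.30 and 0.37 in the same order of comparisons. Only mt-Nd6 passed, measuring 3461, 4191 and 2797 FPKM in control, 2940.3, 2954 and 4321 in HFD and 5922, 5520.5 and 5012 in HFD+Pc. All 3 HFD+Pc libraries were above the rest (0.67 ± 0.19, limma adjusted p = 0.0338), a call kept in 4 of 9 fits with 1 library left out. Of 14 other complex I assembly factors, Tmem126b, a membrane arm factor, was called higher in HFD+Pc against control (3.56 ± 0.706 to 5.43 ± 0.273 FPKM; 0.51 ± 0.11, limma adjusted p = 0.0104), and none was lower. The share called higher was thus 14.3% of the 7 and 7.14% of the 14, against 11.1% of all tested genes.

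Complexes III, IV and V held calls in both directions, and complex II had lower calls alone. Of all tested genes, 5.35% were called lower and 4.61% higher in HFD against control, and 11.9% and 11.1% in HFD+Pc against control. In these comparisons, 12.5% and 25% of complex II and 5.26% and 36.8% of complex V were called lower. In complexes III and IV these shares were each 14.3% and 28.6%. Complex III had 7.14% called higher in each, and complexes IV and V had 4.76% and 5.26% in HFD+Pc against control. In complex II, 1 of 8 genes was lower in HFD against control and 2 in HFD+Pc against control. Sdhd, a membrane anchor, went from 169 ± 5.61 FPKM in control to 115 ± 3.24 in HFD and 118 ± 6.63 in HFD+Pc (-0.56 and -0.52 against control), and the assembly factor Sdhaf1 had -0.68 in HFD+Pc. Of 14 complex III genes, 2 were lower and 1 higher in HFD against control, and 4 lower and 1 higher in HFD+Pc against control. Uqcr11, a small subunit, measured 114 ± 6.93, 65.5 ± 9.30 and 44.7 ± 11.7 FPKM in control, HFD and HFD+Pc (-0.79 and -1.35 against control), and Uqcc3 (-0.57 and -0.71) was lower in both diet groups. Uqcrq (-0.83) and Uqcrb (-0.60) fell in HFD+Pc against control, where the core subunit Uqcrc2 rose (0.31). The chaperone Bcs1l rose in HFD (0.42). With 1 library left out, the calls in HFD against control were kept in 4 of 9 fits for Uqcr11, 6 for Uqcc3 and 5 for Bcs1l, and that of Uqcrc2 in HFD+Pc against control in 3. Sdhaf1 was above 1 FPKM in 2 control libraries and 1 HFD library, and in no HFD+Pc library. It was thus tested only through those libraries, and its place in the 25% of complex II called lower follows in part from that filter.

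In complex IV, 3 of 21 genes were lower in HFD against control (Cox11, Cox7a1 and Cox8a, -0.73 to -0.44), and the calls of Cox11 and Cox8a were each kept in 2 of 9 fits with 1 library left out. In HFD+Pc against control 6 were lower (Cox5b, Cox6b1, Cox11, Cox7a1, Cox7b and Cox10, -0.97 to -0.37) and Sco1, a copper chaperone, was higher (0.41), with the calls of Cox7b and Sco1 kept in 5 and 6 of 9 such fits. Cox7a1 was above 1 FPKM in the 3 control libraries alone (1.40, 1.21 and 1.45 FPKM, at most 0.781 elsewhere), so it was tested only because control was high, and its place in both counts follows from that filter. In complex V, the peripheral stalk gene Atp5o was the only 1 of 19 lower in HFD against control (-0.43, kept in 7 of 9 fits with 1 library left out). Against control, 7 were lower in HFD+Pc (Atp5k, Atp5o, Atp5g3, Atp5e, Atp5g2, Atp5d and Atp5f1) and Atp5h was higher (0.27), and the calls of Atp5e and Atp5h were each kept in 4 of 9 fits with 1 library left out. Atp5k, a small membrane subunit, measured 62.96 ± 1.37, 51.7 ± 14.2 and 8.32 ± 0.139 FPKM, a fall of more than any Nduf gene (-2.46 against HFD and -2.78 against control). Against HFD, Atp5g1 was higher in HFD+Pc (0.51, limma adjusted p = 0.0495), a call lost in all 9 fits with 1 library left out.

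Of 8 genes of other routes of electrons to ubiquinone, Etfb and Prodh were called. Etfb, a subunit of the electron transfer flavoprotein of fatty acid oxidation, measured 20.8 ± 2.45, 12.9 ± 3.05 and 6.68 ± 0.981 FPKM (-1.504 ± 0.17, limma adjusted p = 0.00148 for HFD+Pc against control; -0.67 ± 0.17, limma adjusted p = 0.0418 for HFD against control). Prodh, which oxidizes proline, had -0.38 in HFD+Pc against control. Etfa, the other subunit of that flavoprotein, had 0.20 and -0.04 in HFD and HFD+Pc against control, and Etfdh had 0.24 and 0.01. None of these passed (lowest limma adjusted p = 0.123). The call of Etfb in HFD against control and that of Prodh were each kept in 2 of 9 fits with 1 library left out (limma adjusted p up to 0.122 and 0.133). The share of the 8 genes called lower was 12.5% in HFD and 25% in HFD+Pc against control, against 5.35% and 11.9% of all tested genes. Of 12 tested genes of ubiquinone synthesis, Pdss2 alone passed, higher in HFD+Pc against control (0.34, limma adjusted p = 0.0498, kept in 1 of 9 fits with 1 library left out). That is 8.33% of the list, against 11.1% of all tested genes called higher.

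**Figure D5:**
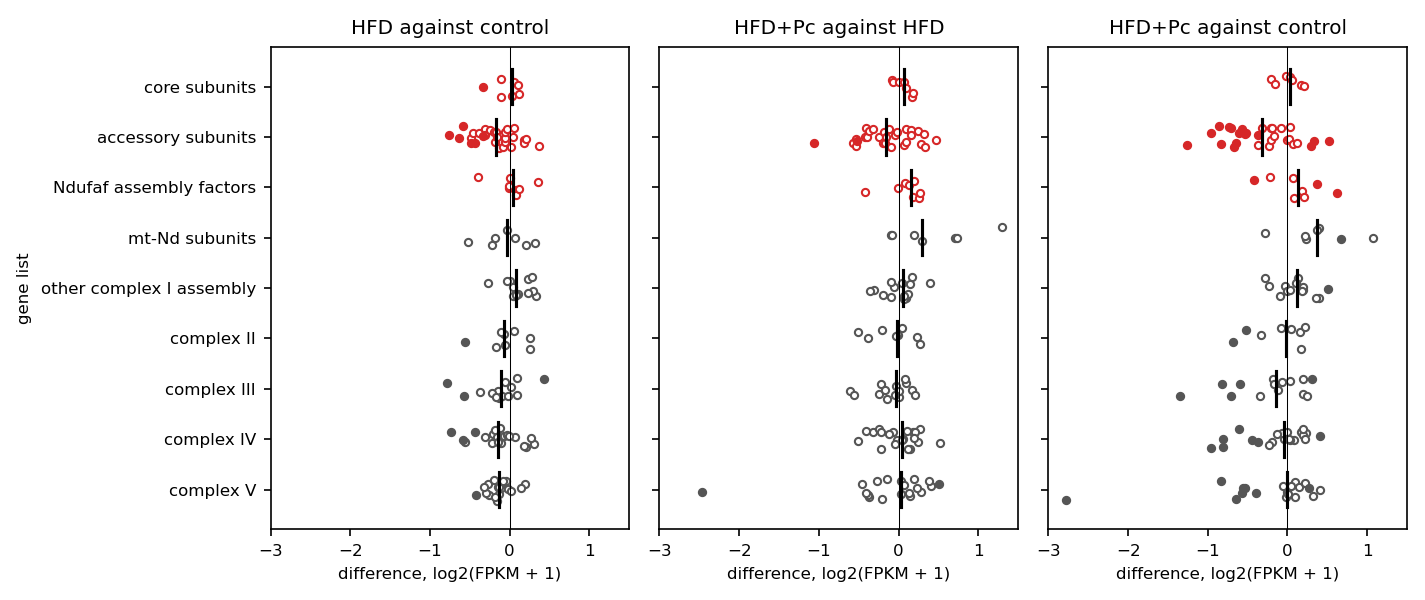
Differences on the log2(FPKM + 1) scale of the nuclear complex I genes (red) and of other respiratory chain lists (gray) in the 3 comparisons. Each point is a gene, filled where called (limma adjusted p under 0.05), and vertical bars are list medians. The accessory subunits have medians of -0.18, -0.16 and -0.32, the core subunits 0.03, 0.07 and 0.04, and the isolated point at the left for complex V is Atp5k.

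Among 11 tested regulators of mitochondrial genes, 1 was lower in HFD and 2 in HFD+Pc against control. These were 9.09% and 18.2% of the list, against 5.35% and 11.9% of all tested genes. Esrra, an orphan nuclear receptor that activates respiratory chain genes, measured 9.59, 8.07 and 8.59 FPKM in control, 5.28, 5.42 and 4.55 in HFD and 3.96, 4.23 and 3.50 in HFD+Pc. The 3 groups were separated, in the order control, HFD, HFD+Pc (-0.68 ± 0.09, limma adjusted p = 0.00668 for HFD against control; -0.99 ± 0.09, limma adjusted p = 0.00105 for HFD+Pc against control), and both calls held in all 9 fits with 1 library left out. Ppargc1b, a coactivator of Esrra, went from 1.92 ± 0.0944 FPKM in control to 1.62 ± 0.118 in HFD and 1.17 ± 0.0454 in HFD+Pc (-0.43 ± 0.08, limma adjusted p = 0.0062 for HFD+Pc against control). Its relative Ppargc1a had -0.31, 0.05 and -0.26 in the 3 comparisons, Gabpa -0.05, -0.14 and -0.19, and Tfam, the packaging factor of mitochondrial DNA, -0.07, 0.22 and 0.15, none of which passed (lowest limma adjusted p = 0.14). Nrf1 stayed under the filter, at 0.790 to 0.887 FPKM in control, 0.740 to 0.946 in HFD and 0.911 to 1.06 in HFD+Pc, and was not tested. Whether any of these regulators bears on the Nduf genes was not tested.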

How the data were processed

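Liver RNA was extracted with Trizol and sequenced as Illumina libraries, per the labels' protocols. The submitters' processing notes name HISAT2 2.0.5 and the build GRCm39, and the counting tool, its use of strand and the annotation are not given in the sources used here. The deposited table holds FPKM per gene in 9 libraries, per the file headers. Symbols, biotypes, lengths and GC content came from GENCODE M21 (an earlier build, GRCm38), so no coordinates of the files are given, and promoter sequences came from RefSeq on GRCm38.p6.

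The members and the gene lists were chosen with earlier results of these data known. The separate values of 1 member are not reported here, and it stays in the counts and medians. Whole reads were recovered from the FPKM values with that annotation for 25356 of 25831 expressed rows with a length (98.2%, tolerance 0.02), including all 46 members. Genes at 1 FPKM or more in at least 3 libraries (10988) were tested with limma 3.58.1 in R 4.3.3 on log2(FPKM + 1), with a mean per group, all 9 libraries in 1 model and eBayes with trend and robust estimation. A fold change on that scale understates the change of low genes. Benjamini-Hochberg adjustment ran over the 10988 genes, and a call needed an adjusted p under 0.05. The code of the test was also run on simulated counts. Their dispersion was set alike for every gene and not fitted to these libraries, so that run says nothing of the calls made here. Genes named are all members that passed, the 5 largest differences per direction and comparison, the member with the most transcript per role, passing genes of the lists, and Ppargc1a, Nrf1, Gabpa, Esrra and Tfam. BLAST 2.17.0 searched for copies (90% identity, 100 bases or more). Tables used Python 3.11.15 and pandas 2.3.3. Alternatives were other pseudocounts, filters, scalings and fits, voom on recovered reads, a length and GC correction, a replicate block, each library left out, and the reads of copies added.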

Additional observations from a re-analysis of the deposited data

How the results depend on the processing

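The count of Nduf genes called lower in HFD against control, 7 with all libraries, was 4 with a minimum of 0.1 FPKM, 0 without a filter, 3 with equal FPKM sums and 4 with only the 2 groups compared, and 1 member (Ndufaf1) was higher with equal FPKM sums and with quantile normalization. In HFD+Pc against HFD the count of 2 was 0 with a minimum of 0.1 FPKM, without a filter, with plain eBayes and with only the 2 groups compared, 4 by voom, and 1 member was higher with the length and GC trend removed. In HFD+Pc against control, 2 rather than 5 were higher without a filter. Leaving out 1 library gave 1 to 7 lower and 0 to 0 higher in HFD against control, 0 to 4 lower and 0 to 0 higher in HFD+Pc against HFD, and 10 to 16 lower and 2 to 5 higher in HFD+Pc against control. The difference of Ndufa12 in HFD against control turned to -0.0418 with the reads of its copy added. The cause of these changes was not tested. No scaling moved the median of all tested genes by more than 0.05 on the log2 scale.

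Replicate numbers were not treated as pairs: deviations of same-numbered libraries from their group means correlated at -0.119 to 0.0533. With a replicate block, 1 member was lower in HFD against control, 0 were lower in HFD+Pc against HFD, and 8 were lower and 2 higher in HFD+Pc against control. With 3 libraries a group and as few as 8 reads, changes in Ndufa4l2 smaller than its spread were not detectable at this depth.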
